A study of Mus musculus with 11 samples.

Results

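Infarcted hearts of mice that received an inhibitor of the metalloprotease ADAM10 were compared with hearts of sham-operated mice, across all expressed genes. The comparison takes 7 of the 11 mice sequenced, chosen by their labels alone: A116, A117, A119 and A120 had a myocardial infarction (MI) and GI254023X (A10i, 100 mg/kg), whereas S1, S2 and S3 were sham-operated and received the solvent DMSO. All were female C57BL/6J mice, aged 8 weeks, and their hearts were taken 3 days after surgery. MI was induced by permanent ligation of the left anterior descending coronary artery, and the drug or solvent came from osmotic minipumps under the skin. The infarcted hearts gave the infarct together with its border zone, whereas the sham hearts gave healthy tissue. The other 4 mice (A105, A127, A128 and A129) had MI and DMSO, and they serve here to show what the same surgery gave without the drug. Sham mice with A10i are not among the samples, so an effect of the drug and an effect of the infarct cannot be told apart in the comparison with sham. The inhibitor acted on the whole animal, and each library is the bulk RNA of 1 piece of tissue.

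ADAM10 is a membrane-bound protease that cuts other membrane proteins close to the cell surface and so releases their outer parts, a process called ectodomain shedding. Among its substrates are the Notch receptors and the chemokines CX3CL1 and CXCL16. After a coronary artery is closed, cardiomyocytes die, neutrophils and then monocytes enter the tissue, macrophages clear the debris, and fibroblasts divide and lay down a collagen scar. Surviving cardiomyocytes shift toward a fetal programme with natriuretic peptides and less oxidative metabolism.

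The libraries held 25538009 to 29511768 counts in sham, 21702623 to 25695213 in A10i and 22651265 to 29004048 in DMSO mice. Genes of the mitochondrial genome took 21.5 to 22.2% of the counts in sham but 15.7 to 17.9% in A10i mice, which did not overlap (exact permutation test, two-sided, p = 0.0571, the smallest that 4 against 3 allows). The part of this share in the results was not tested, but with these genes left out 2333 genes were higher and 1538 lower, against 2333 and 1546 with them. Levels are given in CPM, counts scaled to a common library total, after TMM normalisation. TMM adjusts for library size and composition and takes most genes as unchanged. A gene was called when its p-value from edgeR's quasi-likelihood test, adjusted over all genes tested, was below 0.01. Log2 fold changes come from the same fit, with standard errors (SE) in parentheses. Since each library is bulk tissue, fewer cells of a type and less RNA per cell cannot be told apart. The p-values measure the spread between these mice.

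Infarcted A10i hearts differed widely from sham. Of 16971 genes tested, 2333 were higher (13.7%) and 1546 were lower (9.11%), together 3879 (22.9%). The changes were unequal in size. Of the higher genes, 1207 rose by at least 1 on the log2 scale, 477 by at least 2 and 87 by at least 4. Of the lower genes, 167 fell by at least 1, 15 by at least 2 and 0 by at least 4. The median called gene rose by 1.04 or fell by 0.52 on the log2 scale, whereas the median over all genes tested was -0.01. Higher genes made up 5.78% of the CPM in sham and 10.8% in A10i mice, and lower genes 27% and 17.6%. In every called gene the values of the 4 A10i and 3 sham mice did not overlap, which was so for 48.3% of all genes tested. Leaving out 1 sham mouse lowered the number of calls most, to 1620 without S1, 1714 without S2 and 1664 without S3. Without A116 it was 4365, and without A120 it was 2788. Scaling by library size alone shifted the median of all genes by 0.19 on the log2 scale, and 85.6% of the calls were then higher, against 60.1% with TMM.

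**Figure D1:**
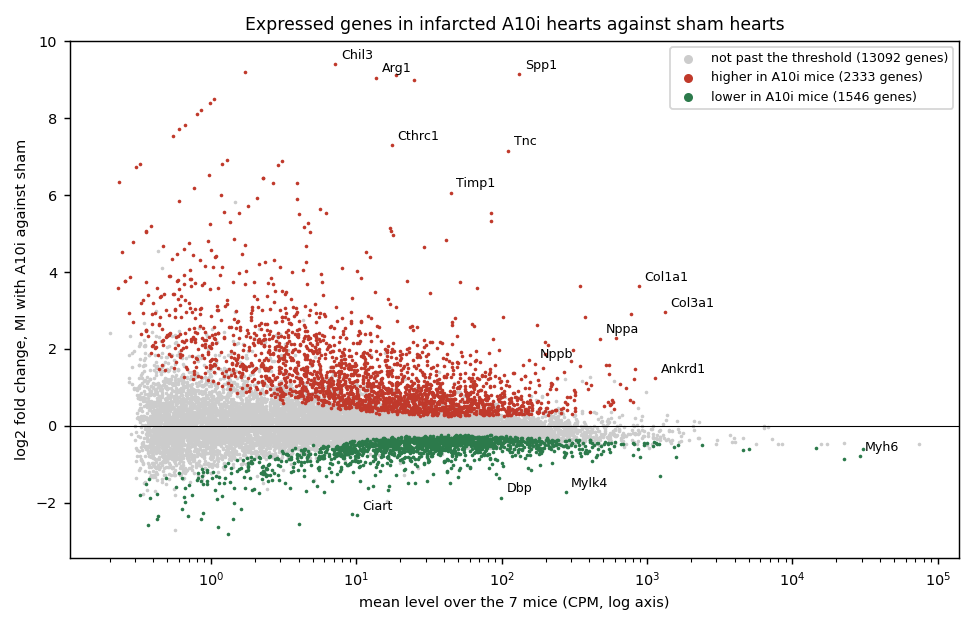
Each point is 1 of 16971 genes, with its mean level over the 4 A10i and 3 sham mice (CPM, log axis) against the log2 fold change between these groups. Called genes are red (2333 higher) or green (1546 lower), and the largest changes upward, such as Chil3, Spp1 and Tnc, exceed any change downward.

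The same surgery with DMSO gave 2215 higher (12.9%) and 1643 lower genes (9.6%) against the same 3 sham mice, together 3858 of 17117 tested (22.5%). Both comparisons share the sham libraries, so their values are set side by side here and the difference is taken from the direct test of A10i against DMSO. There, edgeR called 0 of 16792 genes (0.0%) in either direction, 0 higher (0.0%) and 0 lower (0.0%), with a smallest adjusted p of 0.0479. At an unadjusted p below 0.05, 1193 genes were higher (7.1%) and 1130 were lower (6.73%) in A10i mice. DESeq2 called 227 genes and limma-voom called 0. In simulated data for this comparison, edgeR called 6 of 73 genes changed 1.5-fold and 36 of 64 changed 2-fold. A count of 0 therefore does not show that small differences were absent. Of the 2333 genes higher than sham, 2328 were tested directly, and their log2 difference between A10i and DMSO had a median of -0.03 and an interquartile range of -0.20 to 0.20. For 1698 of them the 95% interval of that difference lay within 1 on the log2 scale in both directions. At an unadjusted p below 0.05, 160 were higher and 264 lower in A10i. Of the 1546 lower genes, 1525 were tested directly, with a median of 0.05 (interquartile range -0.06 to 0.18), 1421 within the same limits, and 169 higher against 56 lower in A10i. In the paragraphs that follow, a direct difference is given as log2 A10i against DMSO with its unadjusted 95% interval.

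Genes were grouped in 51 lists by function or cell type, and their members were counted against the shares of all genes given above. The lists were chosen with earlier results of these data known, so their counts and shares are descriptions only. Counts are over the members that passed the filter on low counts, 1103 of 1186 genes in all for A10i against sham. The filter was applied to each comparison, so in some lists the number tested differs with DMSO. With DMSO, 49 lists had a call, and in 39 of them leaving out 1 mouse moved a count by over 1.5 times, so the DMSO counts beside those of A10i rest on few mice too. Sarcomere genes fell in part. Myh6, the main motor protein of the adult mouse heart (chromosome 14, 54941921 to 54966927 in GRCm38), had 37540, 39038 and 38190 CPM in sham and 18424, 20497, 26533 and 22656 CPM in A10i mice. It fell by 0.79 (SE 0.14, adjusted p = 0.00224) on the log2 scale, and every A10i mouse was below every sham mouse. DMSO mice had 13587 to 20424 CPM, and the direct difference was 0.39 (-0.02 to 0.81). Myl2, the ventricular regulatory light chain, fell by 0.64 (adjusted p = 0.00463), and titin (Ttn), the molecular spring of the sarcomere, by 0.60 (adjusted p = 0.00717). Tcap, which caps titin at the Z-disc, had 1786 to 1940 CPM in sham and 522, 594, 761 and 1102 CPM in A10i mice, and fell by 1.31 (adjusted p = 0.00244). Of 28 sarcomere and Z-disc genes, 6 fell and 1 rose, with a median of -0.27, while in DMSO mice 7 fell and 1 rose, with a median of -0.10. The count of lower genes was 0 without S1, 1 without S2, 0 without S3 and 2 without A120, and without any 1 sham mouse, A117 or A120 the calls of Myl2 (adjusted p = 0.0113 to 0.0265) and Ttn (0.0161 to 0.0451) were lost. Without S1, S2 or S3 the adjusted p of Myh6 was 0.0138 to 0.0155, and without A116, S1 or S3 that of Tcap was 0.0111 to 0.0146. The summed level of the list was 103742 to 106411 CPM in sham, 65960 to 87257 in A10i and 64926 to 92421 in DMSO mice.

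Ion channel genes, which set the electrical activity of the cardiomyocyte, were called in the lower direction only. Of 20 potassium and sodium channel genes, 11 fell and 0 rose, with a median of -0.61, and the same numbers held in DMSO mice with a median of -0.72. Without S1, S2 or S3 the lower count was 5, and without A120 it was 6. By sign, 17 were lower and 3 higher than sham with A10i. The higher count was 1 without A116, with DESeq2 or with library size alone. Scn4b, a sodium channel beta subunit, had 41.4, 41 and 37.8 CPM in sham and 11.1, 13.7, 17.9 and 14.2 CPM in A10i mice, a fall of 1.49 (SE 0.13, adjusted p = 0.000135). Kcnd3, a pore subunit of the transient outward potassium current, fell by 0.81 (adjusted p = 0.000349). Clcn1, a muscle chloride channel, was outside this list and among the 8 lowest log2 fold changes of called genes with at least 10 CPM in the higher group. It fell from 13 to 20.3 CPM in sham to 2.98 to 3.75 CPM in A10i mice (log2 -2.29, adjusted p = 5.28e-05). In DMSO mice it had 0.844 to 2.48 CPM, so those mice were lower still, and the direct difference was 1.01 (0.35 to 1.67).

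Other muscle lists changed in part. Calcium handling had 3 of 18 genes lower and 0 higher, among them Hrc, a calcium-binding protein of the sarcoplasmic reticulum, at log2 -0.75 (adjusted p = 0.00178), and in DMSO mice 5 fell. Without S1 or S2 the count was 0, without S3 1, without A117 5 and without A116 7, and the adjusted p of Hrc was 0.0102 to 0.0113 without any 1 sham mouse. Of 13 intercalated disc genes, 2 fell, Pkp4 and Tjp1, and 0 rose (0 fell without S2, 1 without S3), and 2 fell in DMSO mice. Of 20 cardiac transcription factors and coactivators, 5 fell and 2 rose, with the fatty acid receptor Ppara at log2 -0.62 (adjusted p = 0.000972) and Tbx20 at 0.42 (adjusted p = 0.00376). Without S1, S2 or S3, 1 fell and 0 rose, without A120 2 fell and 1 rose, and without A119 1 rose. The adjusted p of Tbx20 was 0.0195 to 0.0245 without any 1 sham mouse. Among the 8 lowest log2 fold changes of the naming rule, which takes called genes with at least 10 CPM in the higher group, were also Mylk4, a kinase of the myosin light chain kinase family (441, 484 and 449 CPM in sham, 110, 82.7, 211 and 149 in A10i, log2 -1.73, adjusted p = 0.00173), and Ky, a muscle protein (log2 -1.57, adjusted p = 0.000307). The call of Mylk4 was lost without A116 (adjusted p = 0.0281). Ky differed directly by 1.01 (0.40 to 1.63), being lower in DMSO mice. Muscle creatine kinase (Ckm) fell by 0.80 (adjusted p = 0.00174), with 2062 to 2131 CPM in sham and 966 to 1448 CPM in A10i mice, a call lost without any 1 sham mouse (adjusted p = 0.0101 to 0.0111).

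**Figure D2:**
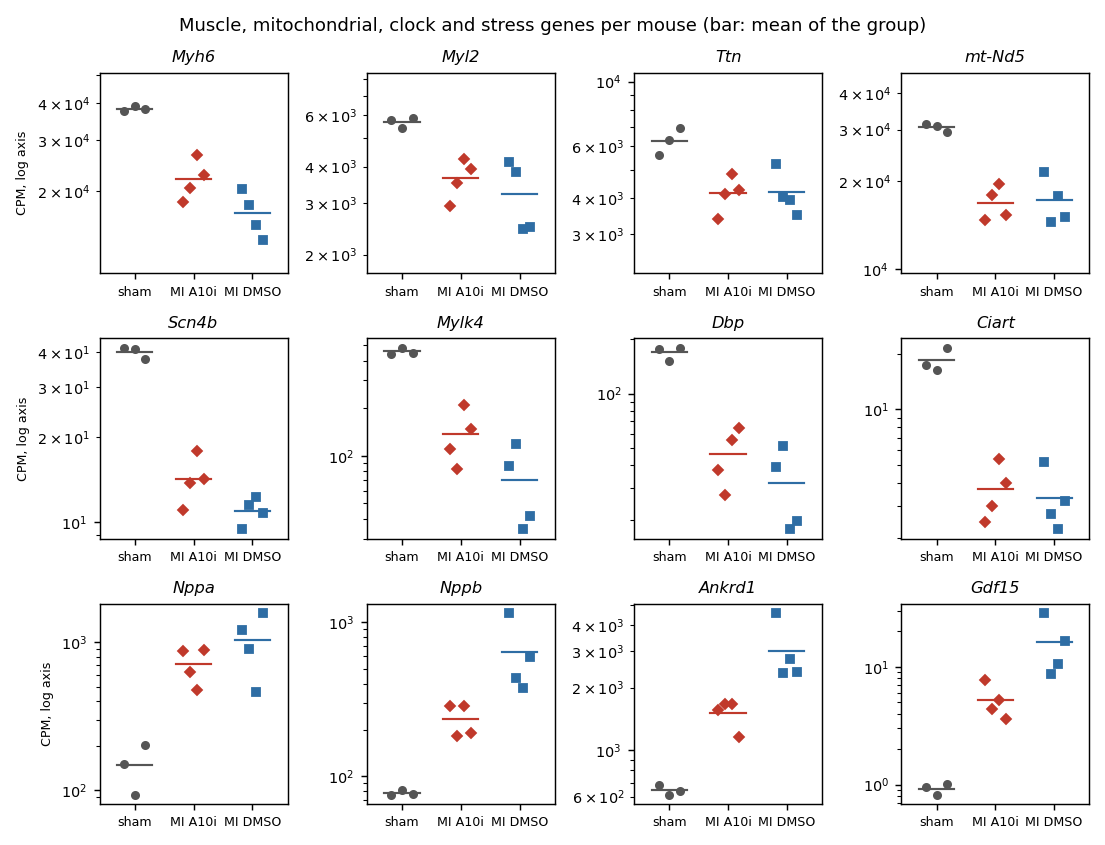
Levels of 12 muscle, mitochondrial, clock and stress genes in each mouse (CPM, log axis), with a bar at the mean of each group of 3 sham, 4 A10i and 4 DMSO mice. Myh6, Scn4b, Mylk4, Dbp and Ciart lie below sham in all 4 A10i mice, and Nppb, Ankrd1 and Gdf15 lie between sham and DMSO mice.

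Genes of the mitochondrial genome fell for the most part, whereas few nuclear genes of oxidative phosphorylation and fatty acid use were called. All 13 protein genes of the mitochondrial genome were tested, and 10 fell, with a median of -0.48, against 2 in DMSO mice with a median of -0.51 (9 without A105, 7 without A129, 1 without A127 or any 1 sham mouse). The direct test put 0 of the 13 at an unadjusted p below 0.05 in either direction. Mt-Nd5, a complex I subunit, had 31265, 30855 and 29423 CPM in sham and 14744, 17865, 19511 and 15297 CPM in A10i mice (log2 -0.85, SE 0.14, adjusted p = 0.00116), and 14445 to 21411 CPM in DMSO mice. The list count was 5 without S1, S2, S3 or A117, 6 without A120 and 13 without A116. Summed, the list had 222731 to 231646 CPM in sham, 133844 to 169178 in A10i and 124164 to 183763 in DMSO mice. Of the 78 nuclear genes of oxidative phosphorylation, only Cox7a1 (log2 -0.68, adjusted p = 0.00265) and Ndufs1 (log2 -0.47, adjusted p = 0.00795) fell, with a median of -0.19 (0 without S1, S2 or S3, 1 without A117, 8 without A116), and 4 fell in DMSO mice (0 without A128 or any 1 sham mouse, 2 without A127, 11 without A105 or A129). Without any 1 sham mouse the calls of Cox7a1 (adjusted p = 0.0111 to 0.0155) and Ndufs1 (0.0113 to 0.038, also without A117 or A120) were lost. Of 28 genes of the citric acid cycle, ketone and branched-chain amino acid breakdown, 7 fell, such as Dbt at log2 -0.59 (adjusted p = 0.000984), and 3 fell in DMSO mice (1 without S1 or S3, 9 without A105, 14 without A129). With A10i the count was 1 without S1, S2 or S3, 2 without A120 and 13 without A116. In fatty acid uptake and oxidation, 2 of 30 fell (Acsl1 and Cpt2) and 1 rose, Pdk4, which shuts glucose carbon out of the mitochondria. Pdk4 had 187, 229 and 155 CPM in sham and 431, 1446, 490 and 1332 CPM in A10i mice (log2 2.29, adjusted p = 0.0068), a call lost without any 1 sham mouse, A116 or A120 (adjusted p = 0.0112 to 0.0237). Without any sham mouse or A120, 0 of the fatty acid genes fell (adjusted p = 0.0104 to 0.0225 for Acsl1, 0.0146 to 0.0277 for Cpt2), and without A116 6 did. Among 30 glycolysis, glucose transport and hypoxia genes, 10 rose and 0 fell, led by Pfkp (log2 0.99, adjusted p = 6.77e-05) and Pgam1 (0.94). The higher count was 6 without S1 or S2, and the lower count was 4 without A116 and 5 with DESeq2. In DMSO mice 9 rose and 3 fell, with 5 higher and 0 lower without any 1 sham mouse.

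Most circadian clock genes fell and 2 rose. Of 18 genes, 10 fell and 2 rose, Arntl and Nfil3, with a median of -0.44, and the lower count stayed between 9 and 11 when any mouse was left out. DMSO mice had 8 lower and 4 higher. Ciart, a clock repressor (chromosome 3, 95878503 to 95882251), had 17.4, 16.4 and 21.6 CPM in sham and 2.46, 2.98, 5.37 and 4.0 CPM in A10i mice, a fall of 2.32 (SE 0.23, adjusted p = 0.000273) and the lowest log2 fold change of any gene that met the naming rule. DMSO mice had 2.23 to 5.15 CPM, and the direct difference was 0.17 (-0.52 to 0.85). Dbp, a clock output factor, had 152 to 180 CPM in sham and 37.8, 27.2, 55.5 and 64.6 CPM in A10i mice (log2 -1.87, adjusted p = 0.00111, lost without A116 at 0.0181). Hlf fell by 1.48 and Nr1d1, a repressor of Arntl, by 1.09 (both adjusted p = 6.77e-05). Arntl, the activator of the clock, rose from 1.23 to 1.77 CPM to 4.32 to 7.24 CPM (log2 1.94, adjusted p = 0.000286), and Nfil3 rose by 0.86 (adjusted p = 0.000301). The time of day at which the hearts were taken is not given in the sources used here. The proximal promoter of Ciart is shown because it held 3 copies of CACGTG, the letters that the clock activators are known to bind, marked in capitals (RefSeq, GRCm38.p6, chr3:95882245-95882366, minus strand, with all 3 upstream of the transcription start).
Ciart: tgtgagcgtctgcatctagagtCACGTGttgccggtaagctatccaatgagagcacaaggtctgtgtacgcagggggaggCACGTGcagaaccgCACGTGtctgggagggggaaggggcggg
In windows from 250 bases before to 50 after the start, CACGTG (the same on both strands) was found in 6 of 21 promoters of the clock list (28.6%, for the 16 of 18 genes with a promoter in the table). It was in 9.53% of the 14384 promoters of genes tested, 8.93% of those of lower and 8.39% of those of higher genes. TCAAGGTCA, letters bound by estrogen-related receptors and searched on both strands, was in 0.257% of the promoters of genes tested, 0.268% of those of lower and 0.3% of those of higher genes.

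Several stress genes of the cardiomyocyte rose, and some of them, such as Nppb, were lower in all A10i than in all DMSO mice. Of 14 natriuretic peptide and fetal stress genes, 6 rose and 0 fell in both infarcted groups, with a median of 1.05 in A10i and 1.38 in DMSO mice. In the direct test, 5 were lower and 0 higher in A10i at an unadjusted p below 0.05. By mouse, the mean of the list lay 0.96 to 1.17 above sham in A10i and 0.87 to 1.89 in DMSO mice, so the infarcted groups overlapped. Nppb, which encodes brain natriuretic peptide (chromosome 4, 147985788 to 147987205), had 75.8, 80.7 and 76.0 CPM in sham, 287, 182, 288 and 190 CPM in A10i and 1155, 433, 373 and 595 CPM in DMSO mice. It rose by 1.61 (SE 0.18, adjusted p = 0.000415) with A10i and by 3.04 with DMSO, and the 3 groups did not overlap. The direct difference was -1.43 (-2.21 to -0.65, adjusted p = 0.132). Nppa, atrial natriuretic peptide, had 151, 93.6 and 203 CPM in sham, 877, 627, 479 and 890 CPM in A10i and 462 to 1586 CPM in DMSO mice, so the infarcted groups overlapped (log2 2.27 against sham, adjusted p = 0.00103, lost without A116 at 0.0158). Ankrd1, a stretch-responsive protein of the sarcomere and nucleus, had 679, 612 and 637 CPM in sham, 1568, 1672, 1665 and 1155 CPM in A10i and 2343 to 4570 CPM in DMSO mice, with a direct difference of -0.99 (-1.51 to -0.47, adjusted p = 0.12). Gdf15, a stress-induced hormone, had 0.823 to 1.01 CPM in sham, 7.78, 4.37, 5.20 and 3.60 in A10i and 8.69 to 28.8 in DMSO mice. It rose by 2.5 (SE 0.29, adjusted p = 0.000319) against sham and differed directly by -1.61 (-2.47 to -0.75). Of 7 atrial markers tested, 3 rose (1 without S1 or A116, 5 without A119), among them Nppa and the retinol dehydrogenase Dhrs9 (adjusted p = 0.0101 to 0.0126 without any 1 sham mouse), and 2 rose in DMSO mice. Bmp10, which defines atrial cardiomyocytes, was at 0 in sham and DMSO mice and had 1 count in A120 and 0 in the other A10i mice. The atrial list summed to 164 to 279 CPM in sham, 568 to 1015 in A10i and 523 to 1724 in DMSO mice. Nppa is a member and most of that sum, so the sum mainly repeats the rise of Nppa. A part of atrial tissue in that rise was not tested.

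Scar genes rose under A10i, most of all the fibrillar collagens by gain in CPM. Of 38 collagen genes tested, 21 rose and 3 fell, with a median of 0.96, against 13 higher and 4 lower of 36 in DMSO mice (median 0.56). The higher count was 16 with A10i and 2 with DMSO without any 1 sham mouse. With DMSO it was 16 without A105 and 10 without A127 or A129. Col1a1, the main fibrillar collagen chain of scars (chromosome 11, 94936224 to 94953042), had 125, 113 and 115 CPM in sham and 2371, 960, 1230 and 1267 CPM in A10i mice, a rise of 3.63 (SE 0.32, adjusted p = 0.000202). DMSO mice spread from 279 to 1522 CPM, and the direct difference was 0.78 (-0.31 to 1.87). Col3a1 had 303, 266 and 242 CPM in sham and 3008, 1733, 1896 and 1770 CPM in A10i mice (log2 2.96, adjusted p = 8.16e-05). It had the largest gain in mean CPM of any higher gene, followed by Col1a1 and Col1a2, and it differed directly by 0.54 (-0.27 to 1.36). Both falls named by the rule were of other collagen types, Col4a4 of basement membranes (log2 -1.07, adjusted p = 0.000966) and the membrane-bound Col25a1 (log2 -1.80, adjusted p = 0.00452, and 0.0109 to 0.0263 without A119, S1 or S3). The lower count was 1 without S1 or S3. Of 25 collagen crosslinking and hydroxylating enzymes, 20 rose and 0 fell (13 without S3), led by Adamts2, which trims procollagen, at 1.47 (adjusted p = 5.23e-05) and its enhancer Pcolce at 1.25. In DMSO mice 15 rose, 7 without S1, 6 without S2 or S3, 18 without A105 and 11 without A127.

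Matricellular and provisional matrix genes gave some of the largest rises. Of 35 tested, 28 rose and 3 fell, with a median of 1.66, against 22 and 2 in DMSO mice (median 1.79). With DMSO the higher count was 13 without S1, 14 without S2 or S3, 25 without A105 and 20 without A127, A128 or A129. The lower count with A10i was 0 without S1 or S2 and 1 without S3. Tenascin C (Tnc), an adhesion-modulating protein of healing wounds, had 1.91, 1.12 and 1.05 CPM in sham and 397, 115, 146 and 113 CPM in A10i mice (log2 7.16, SE 0.73, adjusted p = 0.00056). Osteopontin (Spp1), made by macrophages and fibroblasts after injury, had 0.347, 0.337 and 0.524 CPM in sham and 518, 160, 94.0 and 152 CPM in A10i mice (log2 9.15, SE 1.00, adjusted p = 0.000711), with 101 to 539 CPM in DMSO mice. Both genes were highest in A116 among the A10i mice, and neither differed directly beyond its interval, at 0.32 (-0.71 to 1.34) for Tnc and -0.16 (-1.56 to 1.25) for Spp1. Cthrc1, a marker of scar-forming fibroblasts, had 0.130 to 0.242 CPM in sham, 54.6, 15.2, 25.6 and 26.2 CPM in A10i and 1.65 to 29.1 CPM in DMSO mice, a rise of 7.31 (adjusted p = 0.000307) and a direct difference of 1.09 (-0.51 to 2.69). Ccn2, the connective tissue growth factor, rose by 2.11 (adjusted p = 5.23e-05) against 2.77 in DMSO mice, with a direct difference of -0.67 (-1.09 to -0.26). Mfap4, a microfibril protein, was higher in all A10i than in all DMSO mice. It had 16.3 to 17.7 CPM in sham, 55.1, 39.4, 49.5 and 56.3 CPM in A10i and 9.37 to 38.5 CPM in DMSO mice, with a direct difference of 1.08 (0.19 to 1.97). At an unadjusted p below 0.05, 12 of the matricellular genes were higher and 3 lower in A10i than in DMSO mice.

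Fibroblast markers were higher than sham in A10i mice in 14 of 20 genes and lower in 0, with a median of 0.54, whereas in DMSO mice 6 rose (median 0.24). The count with A10i was 8 without S1 or S2 and 9 without S3, and with DMSO it was 1 without S1 or S2, 2 without S3 and 4 without A129. The summed level was 3315 to 3458 CPM in sham, 7252 to 10104 CPM in A10i and 3697 to 7479 CPM in DMSO mice, with no marker at 0 in any group. Directly, 8 of the 20 were higher and 0 lower in A10i at an unadjusted p below 0.05. Of 11 small leucine-rich proteoglycans, which bind collagen fibrils, 8 were higher and 0 lower in the same test. Lumican (Lum) had 81.8 to 88.2 CPM in sham, 141.6, 128.97, 137.9 and 144 CPM in A10i and 77.4, 110, 98 and 125 CPM in DMSO mice, so that every A10i mouse lay above every DMSO mouse. It rose by 0.72 (SE 0.07, adjusted p = 0.000142) against sham and differed directly by 0.43 (0.14 to 0.72). Biglycan (Bgn) rose by 1.58 (adjusted p = 9e-05) but overlapped between the infarcted groups. In all, 5 of the 11 rose (2 without S1 or S2, 3 without S3), and 2 rose and 2 fell in DMSO mice (0 rose without S1 or S2, 1 without S3 or A127). Myofibroblast and smooth muscle contractile genes rose in 14 of 20 and fell in 1, Smtn (higher in 9 and lower in 0 without any 1 sham mouse, lower in 0 without A117 or A119), against 10 higher and 1 lower with DMSO. Tagln, an actin-binding protein of contractile cells, rose by 1.64 (adjusted p = 0.000208) and differed directly by 0.51 (0.04 to 0.99). Their sum was 3255 to 3325 CPM in sham, 4375 to 5354 in A10i and 4098 to 6053 in DMSO mice, and no marker was at 0.

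Proteases of the matrix rose in part. Of 37 matrix metalloprotease, ADAMTS and TIMP genes, 16 rose and 3 fell, against 17 and 5 of 39 in DMSO mice. Timp1, an inhibitor of these proteases, had 0.823 to 1.49 CPM in sham and 123, 67.9, 55.0 and 61.4 CPM in A10i mice, a rise of 6.07 (SE 0.41, adjusted p = 9.41e-05), and 60.4 to 191 CPM in DMSO mice. Adamts8 rose by 2.5 (adjusted p = 7.93e-05), whereas Adamts7 and Mmp15 fell. TGF-beta, activin, BMP and PDGF signalling had 12 of 28 genes higher and 0 lower, with the activin antagonist Fstl3 (1.89) and the secreted glycoprotein Fstl1 (1.97) at the smallest adjusted p (0.000115 and 0.000307), against 10 higher and 3 lower in DMSO mice. Epicardial and mesothelial markers rose in 9 of 13 and fell in 0, with a median of 1.5 against 1.06 in DMSO mice, where 8 rose, and no marker was at 0. Clu, a secreted chaperone, had 459 to 467 CPM in sham and 1055 to 1094 CPM in all 4 A10i mice (log2 1.22, adjusted p = 5.23e-05), and Krt18, a keratin, rose by 3.01 (adjusted p = 0.000102). Of these 13 genes, 8 were higher and 1 lower in A10i than in DMSO mice at an unadjusted p below 0.05. The list summed to 508 to 522 CPM in sham, 1179 to 1249 in A10i and 1006 to 1181 in DMSO mice.

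**Figure D3:**
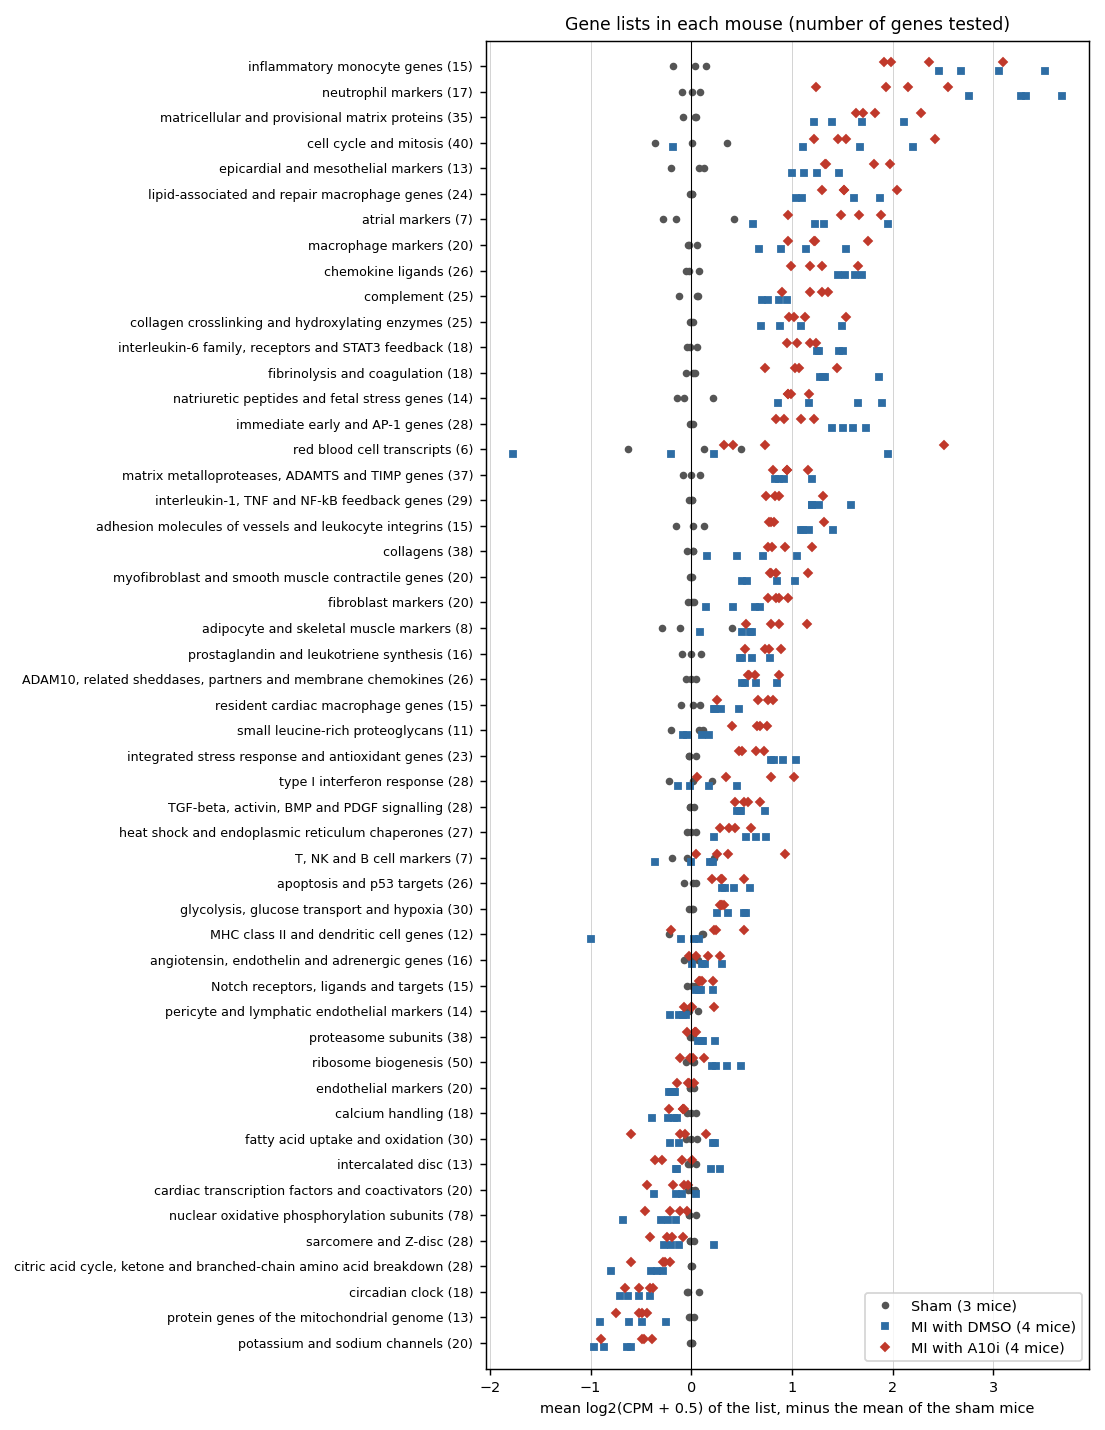
The mean of log2(CPM + 0.5) over each of the 51 gene lists in each mouse, minus the mean of the 3 sham mice, with the number of genes tested in parentheses. Neutrophil markers lie 1.24 to 2.55 above sham in A10i and 2.75 to 3.68 in DMSO mice, whereas fibroblast markers lie 0.76 to 0.96 above sham in A10i and 0.15 to 0.69 in DMSO mice.

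The target of the drug and its partners were measured as RNA. Adam10 (chromosome 9, 70678997 to 70780229) had 57.6, 59.3 and 54.6 CPM in sham, 91.0, 70.1, 69.8 and 67.6 CPM in A10i and 56.9, 71.1, 60.2 and 93.2 CPM in DMSO mice. The A10i mice were all above the sham mice, yet the difference of 0.39 (SE 0.10) did not pass the threshold (adjusted p = 0.0142), and the direct difference was 0.09 (-0.27 to 0.44). Cx3cl1, the membrane chemokine that ADAM10 sheds, had 6.85, 6.77 and 6.29 CPM in sham and 16.6, 10.9, 15.3 and 11.5 CPM in A10i mice, a rise of 1.04 (SE 0.16, adjusted p = 0.000984). DMSO mice rose by 1.03, and the direct difference was 0.00 (-0.47 to 0.46). Its receptor Cx3cr1, found on monocytes and macrophages, had 4.64, 3.03 and 4.60 CPM in sham, 17.3, 7.12, 8.63 and 7.20 CPM in A10i and 3.25, 5.80, 2.63 and 5.89 CPM in DMSO mice. All A10i mice were thus above all mice of both other groups, but neither test passed, with 1.31 (SE 0.35, adjusted p = 0.0172) against sham and 1.2 (0.40 to 1.99, adjusted p = 0.19) against DMSO. In the list of ADAM10, related sheddases, partners and membrane chemokines, 11 of 26 rose and 1 fell, against 11 and 3 in DMSO mice. Adam12 rose by 4.51 (SE 0.52, adjusted p = 0.00056), from 0.599 to 1.17 CPM to 11.9 to 36 CPM. Cxcr6, the receptor of CXCL16, rose by 3.97 (adjusted p = 0.000599) and differed directly by -1.07 (-1.78 to -0.37). Adam22 fell by 0.57 (adjusted p = 0.00433), a call lost without any 1 sham mouse, A117 or A119 (0.0103 to 0.0246). Of 15 Notch receptor, ligand and target genes, Dtx4 rose (1.12, adjusted p = 0.00047) and Notch3 fell (-0.31, adjusted p = 0.00417, and 0.0135 to 0.0246 without any 1 sham mouse or A120), while in DMSO mice 2 rose and 1 fell. Without A117, 2 Notch genes rose.

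Neutrophil markers rose against sham and stood lower than in DMSO mice. Of 25 markers, 17 passed the filter on low counts, and 13 of these rose and 0 fell, with a median of 4.31, against 18 of 19 in DMSO mice with a median of 5.36. Most of them are close to 0 in sham, so that they passed the filter through the infarcted mice, and the medians are descriptions only. Trem1, at 0 in every sham mouse, leaves both medians as they are when it is set to the bound of 3 counts over the sham group. The count was 10 without S1, 9 without S2 and 8 without S3. S100a8, a subunit of the neutrophil protein calprotectin (chromosome 3, 90668978 to 90670035), had 0.130, 0.0748 and 0.0403 CPM in sham, 10.8, 5.42, 3.18 and 7.69 CPM in A10i and 25.9, 18.7, 32.6 and 31.4 CPM in DMSO mice. It rose by 6.31 (SE 0.64, adjusted p = 0.000307) with A10i and by 8.31 with DMSO. Its partner S100a9 had 0.0748 to 0.282 CPM in sham, 12.2, 7.90, 3.51 and 8.05 CPM in A10i and 20.6 to 35.3 CPM in DMSO mice. For both genes every A10i mouse was below every DMSO mouse, with direct differences of -2.0 (-2.73 to -1.27) and -1.95 (-2.67 to -1.24), each at an adjusted p of 0.0707. Directly, 15 of 18 neutrophil markers were lower and 1 higher in A10i at an unadjusted p below 0.05. Ly6g, Elane and Trem1 were at 0 in sham, and Elane was at 0 in all groups. Summed, the list had 27.5 to 38.4 CPM in sham, 69.4 to 132 in A10i and 159 to 280 in DMSO mice.

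Monocyte and macrophage genes rose too, and their order between the infarcted groups differed by list. Of 15 inflammatory monocyte genes, 12 rose and 0 fell in A10i mice (median 3.27), and 13 rose in DMSO mice (median 3.39). Vcan, a proteoglycan also made by monocytes, rose by 1.82 (adjusted p = 0.000319) and Plac8 by 5.50 (adjusted p = 0.000349). Chil3, a chitinase-like protein of monocytes and alternatively activated macrophages (chromosome 3, 106147554 to 106167564), had 1 count over the 3 sham mice, whereas A10i mice had 494, 452, 103 and 193 counts. That is a ratio of 950 per library size, with a 95% counting interval of 170 to 37564. With DMSO the ratio was 3742 (671 to 147844), and the direct difference was -2.03 (-3.23 to -0.83). Arg1, the arginase of reparative macrophages, had 3 counts in sham and 1369, 592, 143 and 286 in A10i mice, a ratio of 610 (208 to 2958), against 1966 (672 to 9535) with DMSO, and its call was lost without any 1 sham mouse (adjusted p = 0.0104 to 0.0121). These intervals cover counting error only. Of the inflammatory monocyte genes, 6 were lower and 0 higher directly at an unadjusted p below 0.05. The summed level was 46.5 to 58.3 CPM in sham, 195 to 488 in A10i and 333 to 824 in DMSO mice.

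General macrophage markers rose in 17 of 20 genes and fell in 0 (median 1.37), against 13 higher and 1 lower in DMSO mice (median 1.00). C1qa and C1qc, chains of the first complement component that macrophages make, rose by 1.29 (SE 0.12, adjusted p = 0.000176) and 1.24. C1qa had 43.2, 38.7 and 39.3 CPM in sham, 119.3, 88.2, 84.0 and 102 CPM in A10i and 57.8, 78.6, 60.4 and 79.3 CPM in DMSO mice, and the 3 groups did not overlap. The direct difference was 0.51 (0.20 to 0.82, adjusted p = 0.161). Resident cardiac macrophage genes rose in 7 of 15 (3 without S1 or S2, 4 without S3), with Mrc1, the mannose receptor, at 1.34 (adjusted p = 0.000398) and the growth factor Igf1 at 1.03 (adjusted p = 0.000422), against 4 in DMSO mice. Here 7 were higher and 0 lower directly at an unadjusted p below 0.05. Lipid-associated and repair macrophage genes rose in 17 of 24 and in 12 with DMSO, with galectin 3 (Lgals3) from 1.82 to 2.17 CPM to 29.6 to 84.3 CPM (log2 4.64, adjusted p = 0.000298) and the lysosomal tetraspanin Cd63 at 1.03 (adjusted p = 8.6e-05). Macrophage markers summed to 546 to 575 CPM in sham, 1098 to 2041 in A10i and 891 to 1553 in DMSO mice, and resident macrophage genes to 769 to 792, 862 to 1113 and 759 to 846 CPM. By the mean of log2 levels, the resident list lay 0.26 to 0.82 above sham in A10i and 0.22 to 0.47 in DMSO mice, so the infarcted groups overlapped. No marker of either list was at 0.

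Lymphocytes and antigen-presenting cells gave few calls. Of 12 MHC class II and dendritic cell genes tested, 1 rose, the receptor Flt3 (log2 1.65, adjusted p = 0.00906), a call lost without any 1 sham mouse, A116 or A120 (0.0152 to 0.0463), and 0 changed in DMSO mice. Without A117 or A119, 2 rose. Of 22 T, NK and B cell markers only 7 passed the filter and 0 were called with A10i, the nearest being Il7r at 2.96 (adjusted p = 0.016). With DMSO 1 rose and 1 fell. The lymphocyte markers summed to 11.3 to 15.1 CPM in sham, 9.91 to 24.3 in A10i and 6.19 to 12.9 in DMSO mice, and the MHC class II and dendritic cell genes to 209 to 283, 193 to 343 and 106 to 254 CPM. Red blood cell transcripts gave 0 calls among 6 genes in either infarcted group (smallest adjusted p with A10i 0.0709, Slc4a1), and their sum varied from 592 to 1298 CPM in sham, 1050 to 5032 in A10i and 232 to 3708 in DMSO mice. Of 8 adipocyte and skeletal muscle markers tested, Tnnt3 rose and Ckm fell with A10i, with adjusted p-values of 0.00781 (0.014 to 0.0306 without any 1 sham mouse or A120) and 0.00174 (0.0101 to 0.0111 without any 1 sham mouse), and 1 rose and 1 fell with DMSO. Ucp1 was at 0 in sham, and Lep and Ucp1 in DMSO mice, whereas among A10i mice A117 alone had counts of them, 5 of Ucp1 and 3 of Lep. That list summed to 2200 to 2254 CPM in sham, 1298 to 1852 in A10i and 956 to 1826 in DMSO mice, and most of the sum in sham was Ckm. By sign, 7 of the 8 markers were higher and 1 was lower with A10i (median 1.60). The mean of the list lay 0.54 to 1.15 above the sham mean in A10i and 0.09 to 0.61 in DMSO mice.

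Many inflammatory mediators rose. Of 40 chemokine ligands, 26 passed the filter on low counts, and 17 of these rose and 0 fell (median 1.55), against 18 of 27 in DMSO mice (median 2.16). Members near 0 in sham passed through the infarcted mice, so the medians are descriptions only. Without S1, S2 or S3 the count was 10, 10 and 11. Ccl8, a monocyte-attracting chemokine made by macrophages, had 0.650, 0.449 and 0.202 CPM in sham, 8.85, 6.04, 6.24 and 7.78 CPM in A10i and 1.56, 4.26, 1.80 and 3.14 CPM in DMSO mice. It rose by 4.06 (SE 0.30, adjusted p = 6.77e-05), lay above DMSO in every A10i mouse and differed directly by 1.42 (0.76 to 2.09, adjusted p = 0.096). Cxcl1, which draws neutrophils, went the other way, with 0.484 to 0.563 CPM in sham, 3.85, 3.10, 2.81 and 3.51 CPM in A10i and 4.86 to 10.4 CPM in DMSO mice (log2 2.62 against sham, adjusted p = 8.38e-05, direct difference -1.15, -1.67 to -0.62). Of 29 chemokines tested directly, 3 were higher and 8 lower in A10i at an unadjusted p below 0.05. Interleukin-6 family ligands, receptors and STAT3 feedback genes rose in 10 of 18 against 12 of 20 with DMSO. Interleukin-1, TNF and NF-kB feedback genes rose in 20 of 29 against 23 of 30 with DMSO. The interleukin-1 count with A10i was 8 without S1, 11 without S2 and 10 without S3. Bcl3, a cofactor of NF-kB, rose by 2.19 (adjusted p = 0.000142), the endotoxin receptor Tlr4 by 0.81 (0.000246) and the TNF receptor Tnfrsf1a by 1.03 (0.000286). In the direct test, 7 of 20 interleukin-6 family genes and 10 of 29 genes of the interleukin-1 list were lower in A10i, and 1 and 0 were higher, at an unadjusted p below 0.05.

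Complement genes rose in most of the list, whereas the share of interferon genes called was near that of all genes. Of 25 complement genes, 18 rose and 0 fell (median 1.41, 11 without S1), against 13 of 23 with DMSO (median 0.89, 6 without S2 and 7 without S1 or S3). Cfb, factor B of the alternative pathway, rose from 0.0403 to 0.112 CPM in sham to 1.40 to 2.11 CPM in A10i mice (log2 4.43, SE 0.38, adjusted p = 8.88e-05), and the DMSO mice had 0.628 to 1.23 CPM. Directly, 12 of 23 complement genes were higher and 0 lower in A10i at an unadjusted p below 0.05. Of 28 type I interferon response genes, 4 rose (14.3%, against 13.7% of all genes) and 0 fell with A10i, and 4 rose and 2 fell with DMSO. The count was 1 without S1, 2 without S2 or S3 and 9 without A117. Ifi27l2a had 14 to 17.7 CPM in sham, 36.8, 41.1, 41.2 and 34.2 CPM in A10i and 28.9, 27.8, 30.9 and 29.6 CPM in DMSO mice, without overlap (log2 1.32, adjusted p = 7.64e-05, direct difference 0.39, 0.20 to 0.58). Zbp1, a sensor of nucleic acids, rose by 2.21 (adjusted p = 0.00256, lost without S1 at 0.0121). In the direct test 12 of the 28 interferon genes were higher and 0 lower at an unadjusted p below 0.05. By mouse, the mean of the interferon list overlapped between all 3 groups, and that of the complement list lay 0.90 to 1.35 above sham in A10i and 0.71 to 0.95 in DMSO mice.

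**Figure D4:**
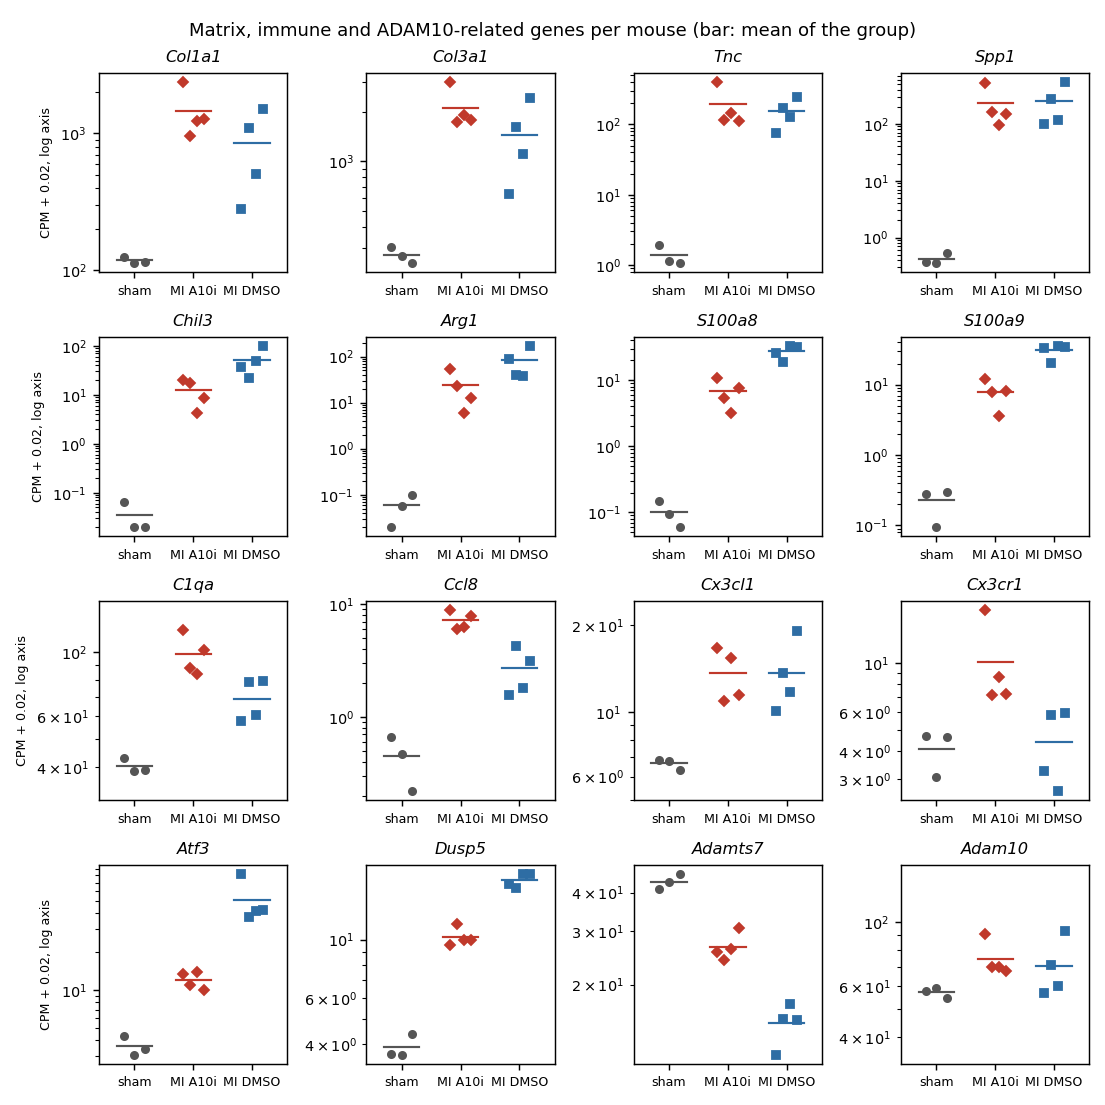
Levels of 16 matrix, immune and ADAM10-related genes in each mouse (CPM + 0.02, log axis), with a bar at the mean of each group of 3 sham, 4 A10i and 4 DMSO mice. Collagens, Tnc and Spp1 overlap between the infarcted groups, S100a8, S100a9, Atf3 and Dusp5 are lower in all A10i than in all DMSO mice, and C1qa, Ccl8 and Cx3cr1 are higher.

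Immediate early and AP-1 genes, which cells switch on within minutes of a stimulus, rose in 21 of 28 and fell in 0 with A10i (median 0.96), against 24 with DMSO (median 1.58). Per mouse the list lay 0.84 to 1.22 above sham in A10i and 1.40 to 1.73 in DMSO mice, so the infarcted groups did not overlap, and 16 of the 28 were lower and 0 higher directly at an unadjusted p below 0.05. Atf3, a stress-induced repressor, had 4.33, 3.07 and 3.39 CPM in sham, 13.2, 10.8, 13.8 and 9.90 CPM in A10i and 81.8, 37.3, 41.5 and 42.9 CPM in DMSO mice. It rose by 1.74 (SE 0.17, adjusted p = 0.000149) against 3.82 with DMSO, a direct difference of -2.09 (-2.65 to -1.52, adjusted p = 0.0479). Dusp5, a phosphatase of ERK, had 3.63 to 4.36 CPM in sham, 9.56 to 11.5 CPM in A10i and 15.8 to 17.8 CPM in DMSO mice (log2 1.40, direct difference -0.72, -0.93 to -0.50). Maff, a small Maf factor, rose by 1.48 (adjusted p = 5.69e-05), with a direct difference of -0.72 (-1.01 to -0.43). Fibrinolysis and coagulation genes rose in 12 of 18 and fell in 2 (higher in 7 and lower in 1 without any 1 sham mouse, lower in 1 without A120), against 13 and 2 with DMSO. Plaur, the urokinase receptor, had 1.39, 1.31 and 1.33 CPM in sham, 13.1, 10.6, 7.43 and 7.47 CPM in A10i and 15 to 29.5 CPM in DMSO mice (log2 2.85, SE 0.24, adjusted p = 9.16e-05, direct difference -0.98, -1.57 to -0.40). The protease inhibitor Serpine2 rose by 1.03 (adjusted p = 8.38e-05), whereas Tfpi, the inhibitor of tissue factor, fell by 0.53 (adjusted p = 0.000636) and tissue factor itself (F3) by 0.75 (adjusted p = 0.00671, and 0.0182 to 0.0322 without any 1 sham mouse or A120). Sprr1a, a stress protein of injured cardiomyocytes and among the 8 highest log2 fold changes of called genes with at least 10 CPM, had 0 to 0.150 CPM in sham and 67.5, 28.6, 36.7 and 41 CPM in A10i mice (log2 8.99, adjusted p = 8.38e-05).
The promoters of Plaur and Sprr1a are shown because both genes rose and both held the AP-1 letters TGAGTCA or their reverse TGACTCA, in capitals (RefSeq, GRCm38.p6). They lie at chr7:24462392-24462442 on the plus strand, with a match 69 bases before the start, and at chr3:92485969-92486049 on the minus strand, with both matches upstream of the start.
Plaur: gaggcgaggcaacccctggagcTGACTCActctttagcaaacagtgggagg
Sprr1a: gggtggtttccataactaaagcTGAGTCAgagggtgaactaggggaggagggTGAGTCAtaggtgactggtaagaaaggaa
On both strands, these letters were in 6.34% of 2002 promoters of higher genes, 3.62% of 1490 promoters of lower genes, 3.96% of promoters of all genes tested and 5.2% of all 32851 promoters in the table, which held 1584 of the 2333 higher and 1126 of the 1546 lower genes. Among other named genes, Dhrs9, which rose, and F3, which fell, also held them upstream of the start. They were in 0 of 28 promoters of the immediate early and AP-1 list, for the 22 of 28 genes with a promoter in the table.

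Vessel genes were called in both directions, and the shares of endothelial markers called with A10i were near those of all genes. Of 20 endothelial markers, 2 rose (10%, against 13.7% of all genes) and 2 fell (10%, against 9.11%) with A10i. With DMSO 2 rose and 6 fell. Cldn5, a tight junction protein, rose by 0.80 (adjusted p = 0.000669) and Ednrb, an endothelin receptor, by 0.88 (adjusted p = 0.0047), whereas Tie1 fell by 0.32 and the water channel Aqp1 by 0.81. Without any 1 sham mouse Ednrb (adjusted p = 0.0119 to 0.03, also without A116 or A120), Tie1 (0.0137 to 0.0193) and Aqp1 (0.012 to 0.0247, also without A119 or A120) lost their calls. The higher count was then 1, also without A120, and the lower count was 0 without any 1 sham mouse, 1 without A119 or A120 and 4 without A117. The list summed to 2956 to 3047 CPM in sham, 2588 to 2883 CPM in A10i and 2387 to 2459 CPM in DMSO mice, with no marker at 0. The sums of the 3 groups did not overlap, but a sum is weighted to abundant genes. By the mean of log2 levels, A10i mice lay -0.14 to 0.03 from the sham mean and overlapped sham mice (-0.02 to 0.02). DMSO mice lay at -0.22 to -0.16. Directly, 3 were higher and 0 lower at an unadjusted p below 0.05. Adhesion molecules of vessels and leukocyte integrins rose in 9 of 15 and fell in 1 in both infarcted groups, with 5, 4 and 4 higher without S1, S2 and S3. P-selectin (Selp), which catches rolling leukocytes, had 0.121 to 0.449 CPM in sham, 7.82, 5.11, 3.30 and 3.87 CPM in A10i and 6.98 to 16.5 CPM in DMSO mice (log2 4.14, SE 0.45, adjusted p = 0.000325, direct difference -1.12, -1.84 to -0.40). Icam1 rose by 0.97 (adjusted p = 0.00024), and Jam2 fell by 0.37 (adjusted p = 0.00528, and 0.0161 to 0.0304 without any 1 sham mouse or A120). Of 14 pericyte and lymphatic endothelial markers, 3 rose and 5 fell, against 1 and 6 with DMSO, with podoplanin (Pdpn) at 2.22 (adjusted p = 0.000286), Ccl21a at 0.98 (0.00126), Vtn at -0.76 (0.000365) and Kcnj8 at -0.67 (0.00056). These markers summed to 1575 to 1646 CPM in sham, 946 to 1229 in A10i and 804 to 1063 in DMSO mice, and none was at 0. Of 16 angiotensin, endothelin and adrenergic genes, 4 rose and 2 fell, among them Ace (0.82, adjusted p = 0.000399), Agt (2.31, 0.00213), Agtr1a (-0.65, 0.00762) and Npr3 (-0.44, 0.00621), and 4 rose with DMSO. The higher count was 1 without S1 and 2 without S2, S3 or A120, and the lower count was 0 without any 1 sham mouse and 1 without A117, A119 or A120. Agt lost its call without S1 (adjusted p = 0.0113), Agtr1a (0.0144 to 0.0336) without any 1 sham mouse or A120, and Npr3 (0.0121 to 0.0347) without any 1 sham mouse, A117 or A119. Prostaglandin and leukotriene synthesis had 6 of 16 higher and 1 lower against 5 and 1, led by Alox5ap (1.98, adjusted p = 0.000307) and Ptgis (1.33, 0.000505), with Pla2g5 lower (-0.57, 0.00619, and 0.0117 to 0.0308 without any 1 sham mouse, A117 or A119).

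Cell division genes were on average above sham in every A10i mouse, with calls that depended on few mice. Of 40 cell cycle and mitosis genes, 30 rose and 0 fell (median 2.15), whereas with DMSO 4 rose and 1 fell although the median was 1.73. Mice A116, A117, A119 and A120 had list means 1.22 to 2.42 above sham. Of the DMSO mice, A105 lay at -0.18 and the others at 1.11 to 2.2, and without A105 the DMSO comparison called 33 genes higher. In A10i mice the count was 5 without S1, 9 without S3, 25 without S2, 4 when all 11 libraries were fitted together and 6 without the filter on low counts. Ube2c, which acts at mitotic exit, had 1.04, 1.68 and 0.726 CPM in sham, 15.2, 5.84, 6.94 and 7.87 CPM in A10i and 1.01, 8.82, 3.29 and 13 CPM in DMSO mice (log2 2.95, SE 0.42, adjusted p = 0.00115). The direct difference was 0.46 (-0.91 to 1.82), and in the direct test 1 of 40 genes was higher and 0 lower at an unadjusted p below 0.05. Ect2, needed for cytokinesis, rose by 2.15 (adjusted p = 0.00122).

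In ribosome biogenesis, the making of ribosomes in the nucleolus, A10i mice stayed near sham while DMSO mice lay above it. Of 50 genes, 1 rose and 4 fell with A10i (median 0.02), whereas with DMSO 15 rose and 1 fell (median 0.31), 4 rising without S1 and 5 without S2 or S3. Per mouse the list lay -0.11 to 0.13 from sham in A10i and 0.20 to 0.49 in DMSO mice, without overlap, and 39 of 50 were lower and 0 higher directly at an unadjusted p below 0.05. Npm1, nucleophosmin, had 47.4, 48.9 and 48.9 CPM in sham, 89.8, 69.5, 67.4 and 69.2 CPM in A10i and 78.8 to 99.0 CPM in DMSO mice (log2 0.62, adjusted p = 0.00135), and the largest subunit of RNA polymerase I, Polr1a, fell by 0.60 (adjusted p = 0.00102). The call of Npm1 was lost without S1 (adjusted p = 0.0103), the higher count was 0 without S1 and 2 without A116, and the lower count was 1 without any 1 sham mouse or A120 and 2 without A119. Of 38 proteasome subunits, 0 were called with A10i (median 0.02, nearest Psmb8 at an adjusted p of 0.0401) and 3 rose with DMSO (median 0.12, 0 without any 1 sham mouse, 1 without A105), and 8 were lower and 0 higher directly at an unadjusted p below 0.05. At the unadjusted level, all of these shares are to be read against 7.1% higher and 6.73% lower of all genes, as descriptions only.

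Genes of cellular stress rose in part. Heat shock and endoplasmic reticulum chaperones rose in 13 of 27 and fell in 1 (7 higher without S2, 6 without S3, 0 lower without any 1 sham mouse, A117 or A120), against 14 and 2 with DMSO, led by Hspa1b (2.06, adjusted p = 0.000453) and Hspa1a (1.47, adjusted p = 0.000591). These are near-identical copies, so the split of reads between them is uncertain. Integrated stress response and antioxidant genes rose in 9 of 23 and fell in 3, against 14 and 1 of 24 with DMSO, with the plasma antioxidant Gpx3 at 1.39 (adjusted p = 0.000122) and Atf5 at -0.60 (adjusted p = 0.000239). The higher count was 4 without S1 or S3 and 5 without S2, and the lower count 1 without S1 or S3. Directly, 9 of 24 were lower and 0 higher in A10i at an unadjusted p below 0.05, against 6.73% and 7.1% of all genes. Apoptosis and p53 target genes rose in 9 of 26 and fell in 2, against 11 and 2 with DMSO, and 5, 4 and 4 rose without S1, S2 and S3. The lower count was 1 without S1, S2, A116 or A120. The cell cycle inhibitor Cdkn1a had 18.7, 24 and 22.8 CPM in sham and 66.1, 91.2, 55.4 and 63.6 CPM in A10i mice (log2 1.66, adjusted p = 0.000319), whereas Gadd45a had 20.3 to 22.5 CPM in sham and 5.99 to 7.59 CPM in A10i mice (log2 -1.56, adjusted p = 5.23e-05). Gadd45a was at 6.95 to 7.18 CPM in DMSO mice, and its direct difference of 0.01 had the narrow interval -0.25 to 0.26.

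The genes that passed the threshold against sham and had the smallest p between A10i and DMSO were taken in each direction, so their direct differences are a description. Lower in A10i were Atf3, Dusp5, Resf1 and Adamts9, each at an adjusted p of 0.0479. Resf1, a regulator of endogenous retroviruses, had 30.3 to 37.4 CPM in sham, 46.9 to 61.4 CPM in A10i and 89.3 to 122 CPM in DMSO mice, and Adamts9, a versican-cleaving protease, had 23.6 to 24.2, 38.1 to 45.8 and 60.9 to 80.6 CPM. Higher in A10i were Adamts7, Trf, Mtr and Cd200. Adamts7, another secreted protease, had 41.1, 43.2 and 46 CPM in sham, 25.5, 24, 26.1 and 30.5 CPM in A10i and 11.8, 15.5, 17.2 and 15.3 CPM in DMSO mice, so that its fall of 0.71 (SE 0.09, adjusted p = 0.000375) was smaller than that of 1.54 with DMSO, at a direct difference of 0.83 (0.55 to 1.11, adjusted p = 0.058). Mtr, methionine synthase, and Cd200, a membrane ligand that restrains macrophages, fell by 0.49 and 0.46 with A10i and by 1.16 and 1.14 with DMSO. Their calls with A10i were lost without S1 or S2 (adjusted p = 0.0158 to 0.0221) and without S1 (0.0131). Transferrin (Trf) alone of the 8 had no call with DMSO. It had 34.5 to 41.3 CPM in sham, 58.1, 65.5, 44.4 and 57.9 CPM in A10i and 31 to 36.9 CPM in DMSO mice, with a call against sham (0.58, adjusted p = 0.00561) that was lost without any 1 sham mouse, A116 or A120 (0.014 to 0.0298).

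**Figure D5:**
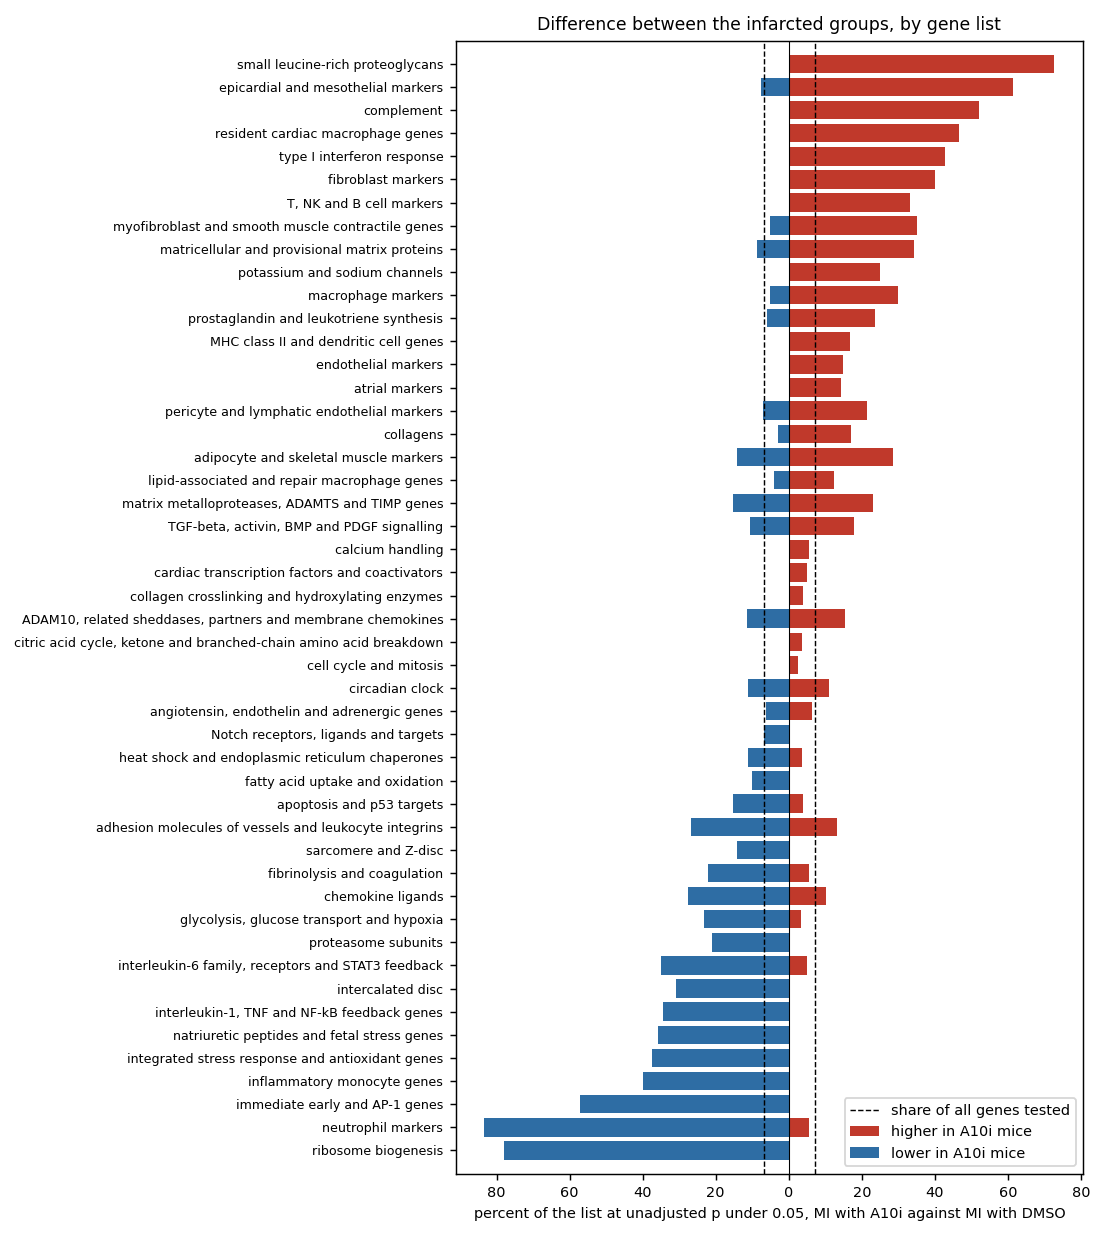
For each of the 48 lists with any such gene, the percentage of its genes that were higher (red) or lower (blue) in A10i than in DMSO mice at an unadjusted p below 0.05, with dashed lines at the shares of all genes tested, 7.1% and 6.73%. Proteoglycan, epicardial and complement genes stand at the top, and neutrophil, ribosome biogenesis and immediate early genes at the bottom.

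Of the 153 genes that the naming rule gave, 148 passed the threshold against sham. When the 7 mice were omitted in turn, 97 of these 148 genes were called every time and 51 lost their call at least once. For 37 of the 51 the call was lost without each of the 3 sham mice, and the highest adjusted p reached in any of these fits was 0.0463.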

How the data were processed

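RNA was taken from 11 mouse hearts, 3 sham, 4 MI with A10i and 4 MI with DMSO, enriched for poly(A) and sequenced as strand-specific libraries. The authors deposited 1 table of whole-number read counts per gene, not normalised, for all 11 mice. The submitters' processing notes name bcl2fastq 2.20.0, the aligner GSNAP, featureCounts 2.0.1 and the build mm10. The strand setting of the counting is not given in the sources used here, so overlapping genes on opposite strands may share reads. Of 55421 gene identifiers, 55154 were given a symbol, and 92 rows of synthetic spike-in RNA were left out.

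Genes with low counts were removed with filterByExpr, libraries were scaled by TMM, and groups were compared with edgeR 4.0.16 (robust quasi-likelihood test, R 4.3.3). P-values were adjusted by Benjamini-Hochberg over all genes tested, with a threshold of 0.01. Each comparison was fitted on its own samples. Replicate pairs differed beyond sampling noise, with chi-square over degrees of freedom of 4.04 to 60.8 in all 15 pairs. The test was checked on simulated data with 200 changed genes in each comparison. For A10i against sham, edgeR called 142 of them and 5 unchanged genes. For A10i against DMSO it called 100 of them and 1 unchanged gene, whereas DESeq2 called 132 and 16.

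Alternatives were DESeq2 1.42.0, its size factors, limma-voom (limma 3.58.1), library size alone, no filter, at least 10 counts in every library, mitochondrial genes left out, all 11 libraries in 1 fit, an adjusted p below 0.05 and leaving out each mouse. Named were the 8 highest and 8 lowest log2 fold changes among called genes with at least 10 CPM in the higher group and no overlap, the 6 largest gains and 6 largest losses in mean CPM, up to 2 called genes with the smallest adjusted p in each direction per list (or the gene with the smallest where none was called), Adam10, Cx3cl1, Cx3cr1, Nppa and Nppb, and the 4 called genes in each direction with the smallest p between A10i and DMSO. The lists, 51 in number with 1186 genes, of which 1103 were tested, and these members were chosen with earlier results of these data known. Of the list symbols, 2 had no match. Promoters came from RefSeq (GRCm38.p6). Intervals of counts cover counting error only.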

Additional observations from a re-analysis of the deposited data

Results flagged for a closer look

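In 312 groups of 4 infarcted mice, 306 from the 153 genes named (log2 scale) and 6 from measures of the libraries (depth, mitochondrial share, genes detected), 19 had 1 mouse that stood apart from the other 3 by Dixon's criterion, a gap larger than the 95% critical share of the group's range. Chance gives about 1 in 20 such groups. All 19 are of genes, and the values are CPM.

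Among A10i mice, A116 stood apart in 6 genes. It was highest for Col3a1 (3008, the others 1733 to 1896), Npm1 (89.8, the others 67.4 to 69.5), the p53 target Phlda3 (27.2, the others 19.8 to 20.2) and Adam10 (91.0, the others 67.6 to 70.1). It was lowest for the mitochondrial carnitine enzyme Cpt2 (124, the others 162 to 170) and the angiotensin receptor Agtr1a (18.3, the others 27.7 to 29.5). A119 was lowest for Gadd45a (5.99, the others 7.30 to 7.59), Gadd45b (5.37, the others 7.5 to 7.87) and the prostacyclin synthase Ptgis (38.4, the others 49.5 to 52.1). A120 was lowest for Cldn5 (15.9, the others 18.4 to 18.7).

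Among DMSO mice, A129 was highest for Plaur (29.5, the others 15 to 16.8) and the glycolytic enzyme Pgam1 (35.6, the others 19.9 to 21.5), and lowest for Hlf (11, the others 19 to 21.2) and the phospholipase Pla2g5 (9.54, the others 17.9 to 20.1). A127 was highest for Notch3 (61.1, the others 51.6 to 52.0) and lowest for S100a9 (20.6, the others 32.8 to 35.3) and Nfil3 (20.7, the others 30.8 to 33). A105 was lowest for Gadd45b (8.06, the others 10.2 to 10.6), and A128 was lowest for Trf (31, the others 36.2 to 36.9).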

How the results depend on the processing

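Against sham, A10i mice had 3879 called genes, 2333 higher and 1546 lower. DESeq2, its size factors, limma-voom, both other filters and the omission of mitochondrial genes left all 3 numbers within 1.5 times. The lower count was 932 when all 11 libraries were fitted together and 577 with library size alone, and at an adjusted p below 0.05 the counts were 6671, 3687 higher and 2984 lower. With 1 mouse left out they were 1620 to 4365, 1062 to 2544 and 543 to 1821, the lowest values each without a sham mouse. DMSO mice had 3858 against sham, 2215 higher and 1643 lower. These became 3330 higher and 708 lower with library size alone, which shifted the median of all genes by 0.21, and 6832, 3687 and 3145 at an adjusted p below 0.05. With 1 mouse left out they were 1525 to 4051, 922 to 2288 and 565 to 1763. Directly, the count of 0 became 227 with DESeq2 (104 higher, 123 lower), 43 without the filter (18 and 25), 11 with all libraries (2 and 9) and 12 at an adjusted p below 0.05 (3 and 9), and 0 to 1 with 1 mouse left out (1 lower without A105, 1 higher without A127). Of 2424 values of named genes against sham under these settings, 2160 kept direction and side of the threshold, 249 lost the call, 15 gained it and 0 reversed. The cause of these shifts was not tested. A fit without 1 of 3 sham mice holds 2. No paired analysis was possible because the groups share no replicate numbers.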

Other observations

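Of all genes tested against sham, Nmrk2, nicotinamide riboside kinase 2, which makes a precursor of NAD, had the smallest p-value. It was not given by the naming rule and was chosen after its values were seen. Nmrk2 averaged 2.47 CPM in sham, 70.7 CPM in A10i and 160 CPM in DMSO mice, a log2 rise of 4.85 (SE 0.17, edgeR adjusted p = 1.68e-06) with A10i and of 6.01 with DMSO. The direct log2 difference was -1.17 (SE 0.44, edgeR adjusted p = 0.282).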
